A study of Mus musculus with 8 samples.

Results

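The genes that write, erase and read DNA methylation were followed across the hippocampi of wild-type mice and mice lacking Mbd2. They were taken by gene symbol from the table of 19201 genes, and all 10 symbols sought were found: the methyltransferases Dnmt1, Dnmt3a and Dnmt3b, the dioxygenases Tet1, Tet2 and Tet3, and the methyl-CpG-binding domain genes Mbd1, Mbd2, Mbd3 and Mbd5. Of these, 4 had less transcript in Mbd2-/- hippocampus (Mbd1, Mbd2, Dnmt3a and Tet2), 6 did not pass the test, and none was called higher. The study sequenced ribosome-depleted total RNA from 4 wild-type libraries and 4 Mbd2-/- libraries, each made from the hippocampi of 2 mice killed at 10 to 12 weeks of age. Wild-type mice carried the C57BL/6 background and Mbd2-/- mice were homozygous for a germline deletion in Mbd2, which every cell type carries, and both groups were littermates born to heterozygous parents and received no treatment. Each replicate was a pool of animals, and p-values measure the spread between such pools.

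Dnmt3a and Dnmt3b place methyl groups on cytosines that carried none, and Dnmt1 copies the pattern onto the new strand when DNA is replicated. The Tet enzymes oxidize 5-methylcytosine to 5-hydroxymethylcytosine, which is abundant in neurons, and so begin its removal. The Mbd proteins read the mark or belong to complexes that do: Mbd1 and Mbd2 bind methylated CpG and repress transcription, Mbd2 and Mbd3 are alternative subunits of the NuRD complex, in which Mbd3 binds methylated DNA poorly, and Mbd5 belongs to a complex that removes ubiquitin from histone H2A.

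The libraries held between 8087750 and 23790825 reads on genes, with a median of 15279428 in the wild-type group and 11545382 in the Mbd2-/- group. All values below are normalized counts, that is reads divided by a size factor of the library, and differences are log2 fold changes of Mbd2-/- over wild-type on log2(normalized count + 1). Calls rest on limma over 14504 tested genes, with p adjusted by Benjamini-Hochberg and a limit of 0.05. Tissue markers moved with the genotype. All 8 choroid plexus markers, led by Ttr, were called higher in Mbd2-/- libraries, and their summed level was 1844 to 1977 CPM (counts scaled to a common library total) in wild-type and 3546 to 4027 CPM in Mbd2-/- libraries. Of 8 thalamus markers, led by Tcf7l2, 7 were called lower, with sums of 367 to 376 CPM and 243 to 289 CPM. Higher calls were also made for 4 of 5 oligodendrocyte markers (Mbp first), 4 of 5 astrocyte markers (Gfap first) and 3 of 5 microglia markers (Cx3cr1 first), and their sums were 5460 to 5632 against 6515 to 6882 CPM, 1559 to 1652 against 1970 to 2021 CPM and 268 to 284 against 300.3 to 339 CPM. The 5 interneuron markers (Gad1 first) had 2 lower and 3 higher calls, the 5 pyramidal neuron markers (Wfs1 first) 2 and 2, and the 4 granule neuron markers (Prox1 first) 1 lower call. The pyramidal sum was 453 to 468 CPM in wild-type and 398 to 452.5 CPM in Mbd2-/- libraries and the granule sum 415 to 431 and 403 to 413 CPM, both lower in every Mbd2-/- library, as were the 4 called genes on average, while the interneuron sum overlapped (651 to 670.3 and 592 to 664 CPM). Single calls were made among 7 tested markers of proliferating cells (Pcna, higher), 5 of immature granule neurons (Calb2, lower, which is also on the thalamus list), 3 of oligodendrocyte precursors (lower), 4 of endothelium (Cldn5, higher) and the only blood marker in the table (Alas2, lower). The sum of the proliferating cell markers was higher in every Mbd2-/- library (45.8 to 52.4 and 54.1 to 58.1 CPM), and that of the oligodendrocyte precursor markers was lower (127 to 134 and 111 to 125 CPM). No marker in the table was at 0 in all libraries. In whole tissue, fewer cells of a type and less RNA per cell cannot be told apart, and the part of these markers in the results below was not tested.

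All 10 genes passed the filter of a mean normalized count of at least 10, and Dnmt3b passed it only through the Mbd2-/- libraries, where its count was higher. Of the 10, 4 were called lower, against 10.0% of all tested genes called lower, and 0 were called higher, against 12.0%. The 4 include Mbd2, the deleted gene, whose loss is the genotype itself, and the medians below include it too. In either direction 22.0% of tested genes were called. The median difference over the 10 genes was -0.18 on the log2 scale, beside a median of -9.1e-05 over all tested genes, with 8 negative and 2 positive values. It was -0.20 over the 9 genes without Dnmt3b. When the trend of each library with transcript length was removed, the median over the 10 genes was -0.07, beside -0.0085 over all tested genes. The 8 libraries separated without overlap for 2 of the genes, Mbd1 and Dnmt3a, and the share of tested genes that separated was 23.6% (11.5% with Mbd2-/- lower). Mbd5, Dnmt1 and Tet3 had an unadjusted p under 0.05 without being called, and 35.5% of all tested genes had such a p, called genes included. With the length trend removed their differences were nearer to 0, at -0.10 for Mbd5, -0.06 for Dnmt1 and -0.0058 for Tet3 (limma adjusted p = 0.349, 0.539 and 0.957).

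**Figure D1:**
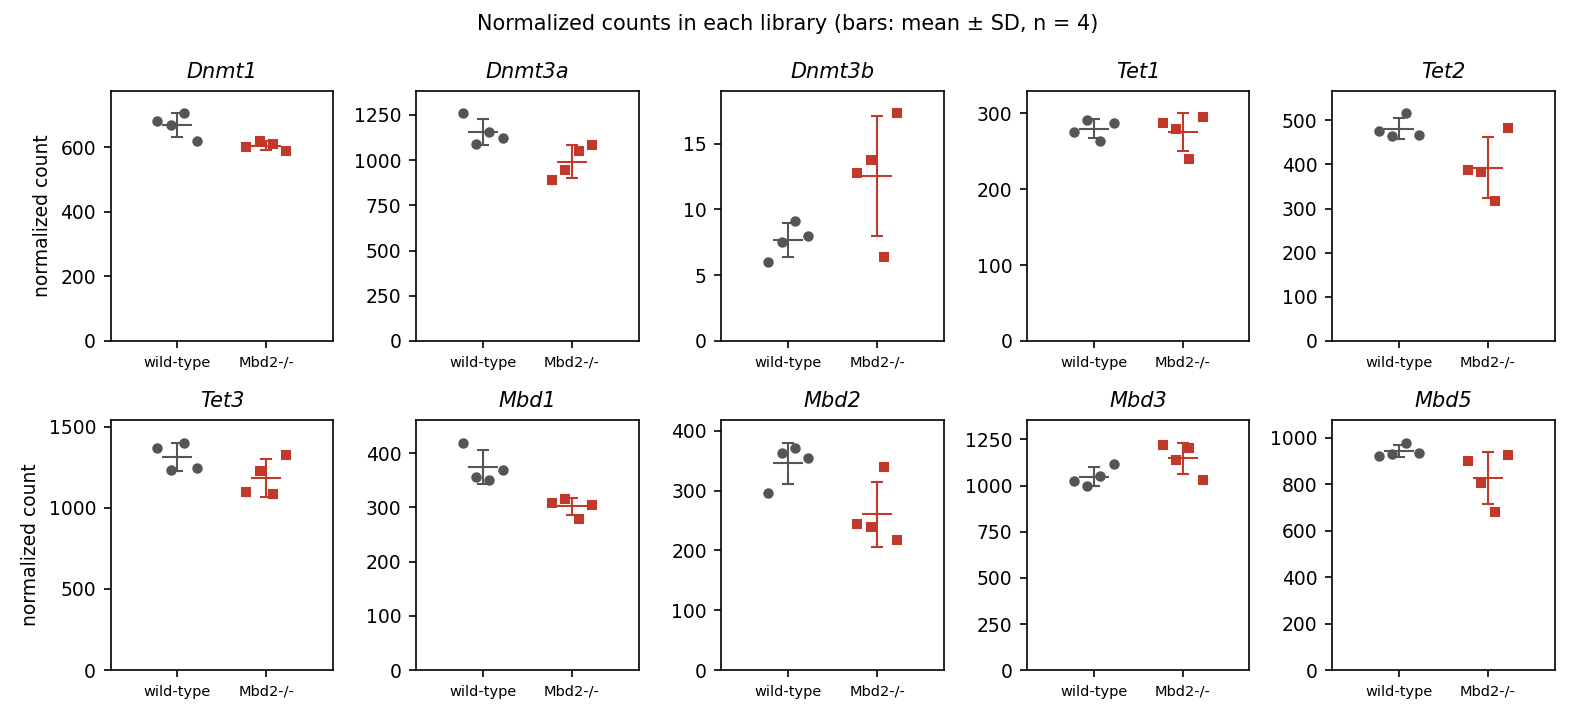
Normalized counts (y axes, each starting at 0) of the 10 genes in each library, with wild-type libraries as grey circles and Mbd2-/- libraries as red squares, and bars at the mean ± SD of the 4 libraries. Mbd1 and Dnmt3a separate the genotypes completely, whereas replicate 3 of Mbd2-/- lies among the wild-type libraries for Mbd2, and replicate 4 does so for Tet2.

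**Figure D2:**
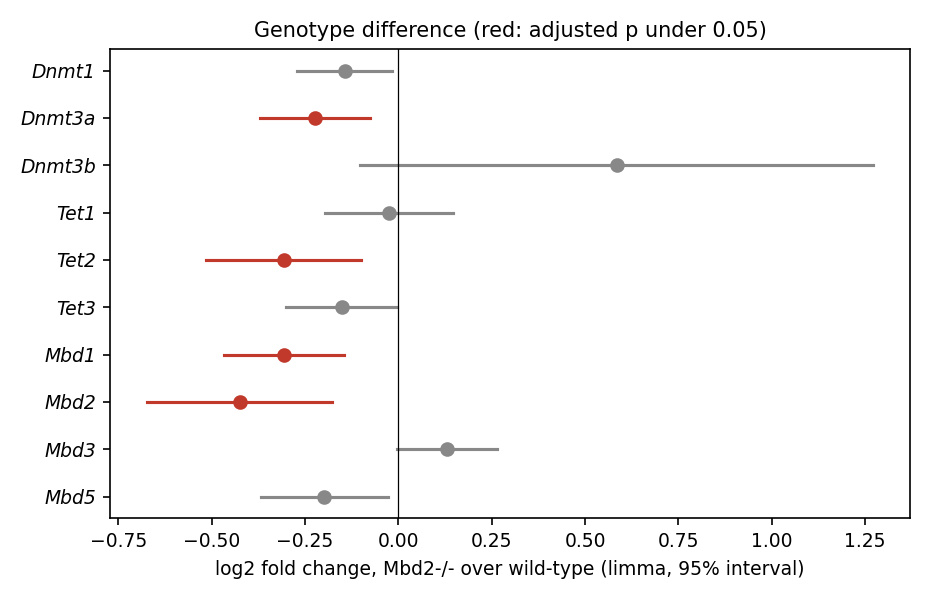
Log2 fold change of Mbd2-/- over wild-type (x axis) for each gene with its 95% interval from limma, drawn in red where the adjusted p was under 0.05. The 4 called genes lie between -0.43 (Mbd2) and -0.22 (Dnmt3a), and the interval of Dnmt3b, from -0.10 to 1.27, is the widest of the 10.

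The deleted gene itself was measured first. Mbd2 lies on chromosome 18 of the mm9 assembly. Its wild-type libraries gave normalized counts of 295, 363, 371 and 354 for replicates 1 to 4, and the Mbd2-/- libraries gave 244, 239.6, 339 and 217. Replicate 3 of Mbd2-/- exceeded wild-type replicate 1, so the groups overlapped, while the other 3 Mbd2-/- libraries lay below every wild-type library. The mean fell from 346 ± 34.4 to 260.0 ± 54.3 (SD, n = 4 each), which left 75.2% of the wild-type level, and the log2 fold change was -0.43 (SE 0.12, 95% interval -0.67 to -0.18, limma adjusted p = 0.0174). An exact two-sided permutation test of the same 8 values gave p = 0.0571, where 0.0286 is the smallest p that 4 against 4 libraries allow. Per the study's supplement, the reads of the deleted allele come from its intact exon 1. In the annotation this exon holds 779 of the 1953 bases of the longest transcript, or 39.9%, in the first of 7 exons. A count over the whole gene includes those reads, so it does not measure transcript that encodes the protein.

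Mbd1 fell in Mbd2-/- hippocampus and kept its call under all 18 alternatives (limma adjusted p 0.00160 to 0.0428). The gene lies on the same chromosome as Mbd2, 3642 kb away. Wild-type replicates 1 to 4 had 419.7, 356, 351 and 369.7 normalized counts, and Mbd2-/- replicates had 309, 316, 279 and 304. Every Mbd2-/- library was below every wild-type library. The mean fell from 374 ± 31.4 to 302 ± 15.98, a log2 fold change of -0.31 (SE 0.08, 95% interval -0.47 to -0.15, limma adjusted p = 0.00977), and the exact permutation test gave its smallest p, 0.0286.

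Mbd3, the NuRD subunit that can take the place of Mbd2, had the highest count of the 4 Mbd genes. The gene lies on the reverse strand at chr10:79855284-79862295 in mm9. Its normalized counts were 1025, 996, 1052 and 1116 in wild-type and 1219, 1138, 1203 and 1032 in Mbd2-/- libraries. Replicates 1, 2 and 3 of Mbd2-/- were above every wild-type library and replicate 4 was within their range. The means were 1047 ± 51.3 and 1148 ± 85.1, and the difference of 0.13 (SE 0.06, 95% interval -0.0028 to 0.26) did not pass (limma adjusted p = 0.148). Mbd5, on the forward strand at chr2:48805030-49177804, had 922, 931, 979 and 935 normalized counts in wild-type and 898, 803, 679 and 925 in Mbd2-/- libraries. Replicate 4 of Mbd2-/- overlapped the wild-type range, and replicate 3 was the lowest library. The difference of -0.20 (SE 0.08, 95% interval -0.37 to -0.03) did not pass either (limma adjusted p = 0.0861).

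Among the writers, Dnmt3a fell. This de novo methyltransferase, the main one of adult neurons, lies on the forward strand at chr12:3806007-3914443. Its normalized counts were 1259, 1089, 1153 and 1125 in wild-type libraries and 887, 945, 1050.4 and 1086 in Mbd2-/- libraries. The highest Mbd2-/- library, replicate 4, was just under the lowest wild-type library, replicate 2. The means were 1156 ± 73.3 and 992 ± 92.0, and the log2 fold change was -0.22 (SE 0.07, 95% interval -0.37 to -0.08, limma adjusted p = 0.0303, exact permutation p = 0.0286). With the length trend removed the difference was -0.08 and was not called (limma adjusted p = 0.389), and 3 of 8 fits with a library left out kept the call.

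Dnmt1, the maintenance enzyme, lies on the reverse strand at chr9:20711650-20757317. It had 683, 670.4, 706 and 620.4 normalized counts in wild-type and 600.2, 621, 612 and 590.03 in Mbd2-/- libraries. Only wild-type replicate 4 reached into the Mbd2-/- range, just below Mbd2-/- replicate 2. The difference of -0.14 (SE 0.06, 95% interval -0.27 to -0.02) was not called (limma adjusted p = 0.0976). Dnmt3b, the second de novo enzyme, which is known mainly from the early embryo, lies on the forward strand at chr2:153475186-153513466 and had few reads. It had 4, 10, 10 and 15 reads in wild-type and 10, 15, 4 and 18 reads in Mbd2-/- libraries, or 7.65 ± 1.29 and 12.5 ± 4.55 normalized counts. Replicate 3 of Mbd2-/- was within the wild-type range and the other 3 were above it. The difference was 0.58 (SE 0.33, 95% interval -0.10 to 1.27, limma adjusted p = 0.210), and with no filter on low values, which Dnmt3b passed only through its higher group, it was not called either (adjusted p = 0.238).

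Among the erasers, Tet2 fell. It lies on the reverse strand at chr3:133126643-133207354. Wild-type libraries had 477, 465, 516 and 467 normalized counts, and Mbd2-/- libraries had 387, 383, 317 and 483. Replicates 1, 2 and 3 of Mbd2-/- were below every wild-type library, and replicate 4 was above 3 of the 4 wild-type libraries. The means were 481 ± 23.8 and 393 ± 68.4, and the log2 fold change was -0.31 (SE 0.10, 95% interval -0.51 to -0.10, limma adjusted p = 0.0344). The exact permutation test had p = 0.114. With the length trend removed the difference was -0.17 and was not called (limma adjusted p = 0.121), and 1 of 8 fits with a library left out kept the call.

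Tet3, on the reverse strand at chr6:83312367-83391672, was the Tet gene with the highest level. It had 1370, 1233, 1402 and 1247 normalized counts in wild-type and 1098, 1227, 1082 and 1327 in Mbd2-/- libraries. Replicate 4 of Mbd2-/- lay inside the wild-type range, and the difference of -0.15 (SE 0.07, 95% interval -0.30 to -0.0039) was not called (limma adjusted p = 0.130). Tet1, on the reverse strand at chr10:62267318-62361866, had 276, 291, 263 and 287 normalized counts in wild-type and 287, 279, 239 and 295 in Mbd2-/- libraries. Replicate 3 of Mbd2-/- was below and replicate 4 above every wild-type library, with the other 2 inside their range, and the interval of the difference, -0.20 to 0.14 around -0.03, covers a fall as well as a rise (limma adjusted p = 0.850).

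Replicate 4 of Mbd2-/- was nearest to the wild-type libraries for several of these genes. It had the highest Dnmt3a, Tet2, Tet3 and Mbd5 and the lowest Mbd3 of its group, although for Mbd2 and Dnmt1 (both lowest) and Dnmt3b (highest) it was the Mbd2-/- library farthest from the wild-type mean. Over all genes, this library also lay apart from the rest of its group. The mean chi-square per gene between the reads of 2 libraries, which grows with read number, was 8.29 to 14.1 for its pairs. It was 3.45 to 5.53 among the other Mbd2-/- pairs and 1.90 to 4.77 among wild-type pairs. Replicate 4 had the lowest choroid plexus sum of its group, 3546 CPM beside 3944 to 4027 CPM, and the highest thalamus sum, 289 CPM beside 243 to 265 CPM. Without it 6 of the 10 genes were called lower (Mbd5 and Tet3 in addition) and Mbd3 was called higher, at 0.18 (limma adjusted p = 0.00917), whereas with the length trend removed and all libraries kept Mbd3 stood at -0.012. Over all tested genes the shares called without this library were also larger, at 17.6% lower and 17.9% higher.

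**Figure D3:**
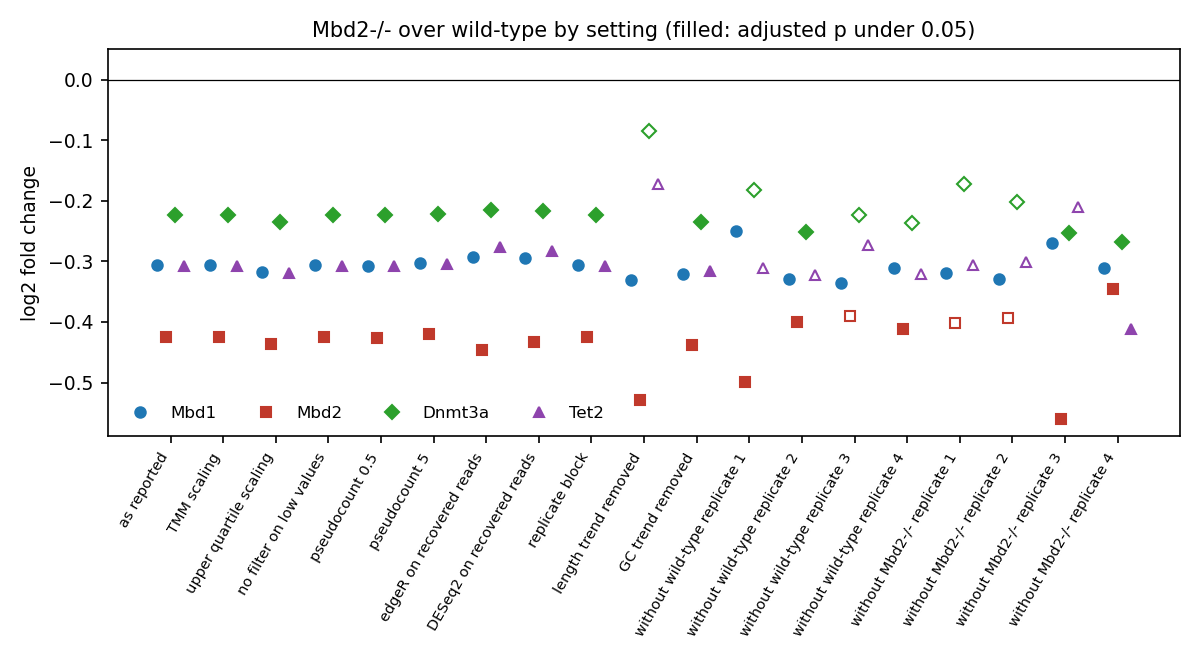
Log2 fold change of Mbd2-/- over wild-type (y axis) of Mbd1, Mbd2, Dnmt3a and Tet2 under the reported fit and each of 18 alternatives (x axis), with filled symbols where the adjusted p was under 0.05. All values are below 0, and only Mbd1 is filled under every setting.

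The calls of Dnmt3a and Tet2 were lost in several alternatives. With the length trend removed, Dnmt3a stood at -0.08 (limma adjusted p = 0.389) and Tet2 at -0.17 (adjusted p = 0.121). Mbd1 and Mbd2 stayed called, and the share of all genes called lower was then 6.78%. On the recovered reads DESeq2 and edgeR called the same 4 genes lower, beside 9.75% and 9.67% of all genes they tested. With the trend on GC content removed Mbd5 and Dnmt1 were called lower as well, but so were 17.3% of all genes. Leaving out 1 library lost the call of Dnmt3a in 5 of 8 cases (without wild-type replicates 1, 3 or 4, or Mbd2-/- replicates 1 or 2, adjusted p 0.0589 to 0.115) and that of Mbd2 in 3 (without wild-type replicate 3 or Mbd2-/- replicates 1 or 2, 0.0542 to 0.0625), whereas Tet2 kept its call only without Mbd2-/- replicate 4, at an adjusted p of 1.07e-04 beside 0.0584 to 0.112 otherwise.

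Levels were then compared between the genes, for which each normalized count was divided by the length of the longest annotated transcript. In wild-type hippocampus Mbd3 stood first at 630.2 ± 30.9 normalized counts per kb (SD, n = 4), above 91.4% of tested genes with a known length and 3.56 times the next gene. Mbd2 followed at 177 ± 17.6 per kb and Mbd5 at 159 ± 4.30, and these overlapped between libraries. A group of 4 genes came next, with Mbd1 at 132 ± 11.1, Dnmt1 at 127 ± 6.86, Tet3 at 120.4 ± 7.85 and Dnmt3a at 119 ± 7.57 per kb, and each overlapped its neighbour in that order. Tet2 at 52.4 ± 2.59, Tet1 at 19.4 ± 0.870 and Dnmt3b at 1.77 ± 0.299 per kb were each below the preceding gene in every library. Tet1 was above 16.7% and Dnmt3b above 0.113% of tested genes. In Mbd2-/- libraries Mbd5, at 140 ± 18.8 per kb, took second place before Mbd2, at 133 ± 27.8, and the 2 overlapped. Since reads of the deleted allele are said to come from exon 1 while the length used is that of the whole transcript, every Mbd2-/- value per kb that includes Mbd2 (its rank, the Mbd sums and shares, and Mbd2 over Mbd3) is a read density over the annotated gene and no measure of intact transcript.

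The order of the middle genes depended on which length was used. With the union of all annotated exons as the length, 4 of the 10 genes kept their rank (Mbd3, Tet2, Tet1 and Dnmt3b). Mbd1 then came second and Mbd5, with 14221 bases of union exons against 5922 in its longest transcript, came seventh. Dnmt3a, with 16642 bases of union exons, stood at 69.5 per kb of union exons in wild-type libraries, beside 127 for Dnmt1 and 118 for Tet3, so that its nearness to these genes held for the longest transcript and not for the union.

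**Figure D4:**
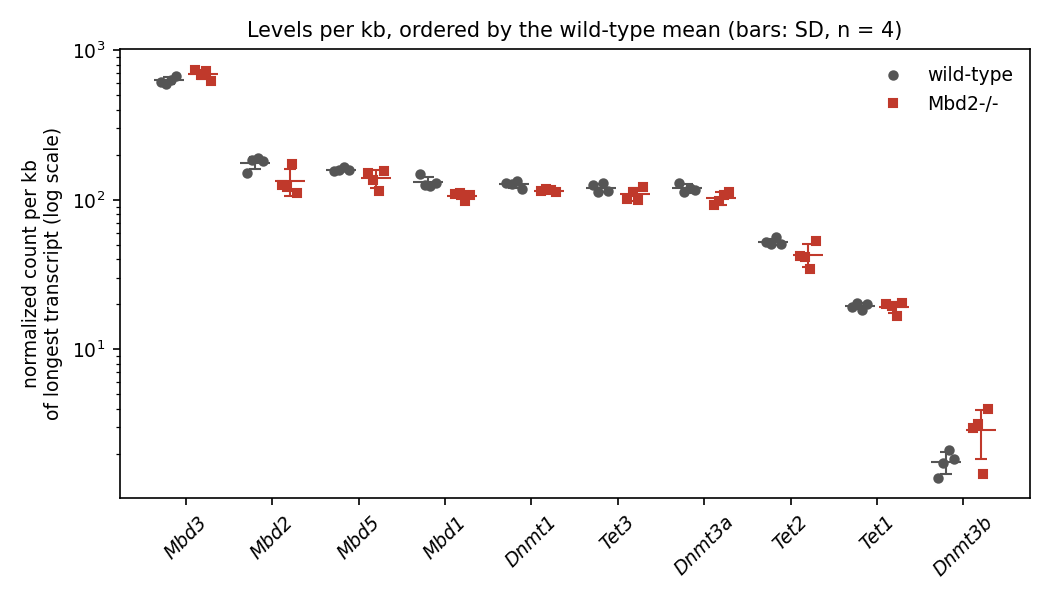
Normalized count per kb of the longest transcript (y axis, log scale) in each library, with genes on the x axis ordered by the wild-type mean, wild-type as grey circles, Mbd2-/- as red squares, and bars for the mean ± SD (n = 4). Mbd3 stands at 630.2 per kb in wild-type libraries, Dnmt1, Tet3 and Dnmt3a lie between 119 and 127, and Dnmt3b is lowest at 1.77.

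Summed over each family, the wild-type hippocampus held 248 ± 11.8 normalized counts per kb of Dnmt transcripts, 192 ± 9.25 of Tet transcripts and 1098 ± 35.0 of the 4 Mbd transcripts. In Mbd2-/- libraries the sums were 220.4 ± 8.89, 170.5 ± 18.9 and 1070.02 ± 57.4. The Dnmt sums did not overlap between the genotypes (236 to 261 per kb in wild-type, 209 to 228 in Mbd2-/-), and the Tet and Mbd sums did. Writers exceeded erasers by a ratio of 1.29 ± 0.0331 in wild-type and 1.304 ± 0.142 in Mbd2-/- libraries, with a wider spread in Mbd2-/- libraries. The size of the excess depended on the length: with union exons the ratio was 1.05 ± 0.0254 and 1.06 ± 0.115, and it was below 1 only in Mbd2-/- replicate 4, at 0.940. Readers exceeded writers 4.43 ± 0.306 times and 4.87 ± 0.411 times, and erasers 5.72 ± 0.336 times and 6.36 ± 0.994 times. These sums over genes were not tested.

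Within the Dnmt family Dnmt1 held 51.2% ± 1.62 and Dnmt3a 48.1% ± 1.69 of the wild-type sum, with 0.715% ± 0.130 for Dnmt3b. With union exons as the length these wild-type shares were 64.2% and 35.1% for Dnmt1 and Dnmt3a. In Mbd2-/- libraries, again per longest transcript, the shares were 52.3%, 46.4% and 1.32%. Tet3 held 62.6% ± 1.17 of the wild-type Tet sum, Tet2 27.3% ± 0.589 and Tet1 10.1% ± 0.928, and in Mbd2-/- libraries the shares were 63.8%, 24.98% and 11.3%, all overlapping the wild-type ranges. In the Mbd family the shares add up to the whole and include the deleted gene, so that less Mbd2 raises the share of the others by construction, and Mbd3 itself was not called. Mbd3 held 57.4% ± 1.15 of it in wild-type and 64.5% ± 1.45 in Mbd2-/- libraries, with ranges of 56.1% to 58.8% and 62.4% to 65.6%. Mbd1 held 12.0% ± 1.22 and 9.98% ± 0.869, also without overlap, and Mbd2 16.1% ± 1.49 and 12.4% ± 2.17, with overlap.

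Ratios of single genes within a library do not depend on how libraries are scaled, and 9 pairs were compared. For Mbd2 over Mbd3, the alternative NuRD subunits, the ratio per kb was 0.245, 0.310, 0.3001 and 0.270 in wild-type replicates 1 to 4 and 0.170, 0.179, 0.240 and 0.179 in Mbd2-/- replicates. Every Mbd2-/- library was below every wild-type library, although replicate 3 of Mbd2-/- came close to wild-type replicate 1. The log2 ratio differed by -0.56 (SE 0.14), with an exact two-sided permutation p of 0.0286 and 0.129 after Benjamini-Hochberg adjustment over the 9 pairs. For Mbd1 over Mbd3 the ratio was 0.210 ± 0.0213 in wild-type and 0.155 ± 0.0160 in Mbd2-/- libraries, again without overlap (log2 difference -0.44, SE 0.10, exact permutation p = 0.0286, adjusted 0.129). No pair was called, 2 pairs had an unadjusted p under 0.05, and a call in this design would have needed 6 of the 9 pairs at the smallest p.

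The other 7 pairs overlapped between the genotypes. Mbd5 over Mbd3 was 0.253 and 0.204 (log2 difference -0.33, SE 0.14, exact permutation p = 0.0571, adjusted 0.171), and the log2 difference was -0.09 with the length trend removed (adjusted 0.551). Tet1 over Tet2 was 0.372 and 0.453 (0.28, SE 0.10, exact permutation p = 0.0857, adjusted 0.193). Tet2 over Tet3 was 0.436 in wild-type and 0.393 in Mbd2-/- libraries (exact permutation p = 0.114, adjusted 0.206), and Tet1 over Tet3 0.162 and 0.177 (exact permutation p = 0.286, adjusted 0.418). Dnmt3a over Dnmt1 was 0.939 ± 0.0627 and 0.891 ± 0.0920 per kb of longest transcript, a level that depends on the length chosen as described above while the log2 difference between the genotypes does not (log2 difference -0.08, SE 0.09, exact permutation p = 0.371, adjusted 0.418). Dnmt3a stood to Tet3 as 0.993 in wild-type and 0.948 in Mbd2-/- libraries (exact permutation p = 0.371, adjusted 0.418), and to Tet2 as 2.28 and 2.44 (exact permutation p = 0.686, adjusted 0.686), the latter with 3.14 in Mbd2-/- replicate 3. Without that library the log2 difference of Dnmt3a over Tet2 was -0.042 instead of 0.084.

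**Figure D5:**
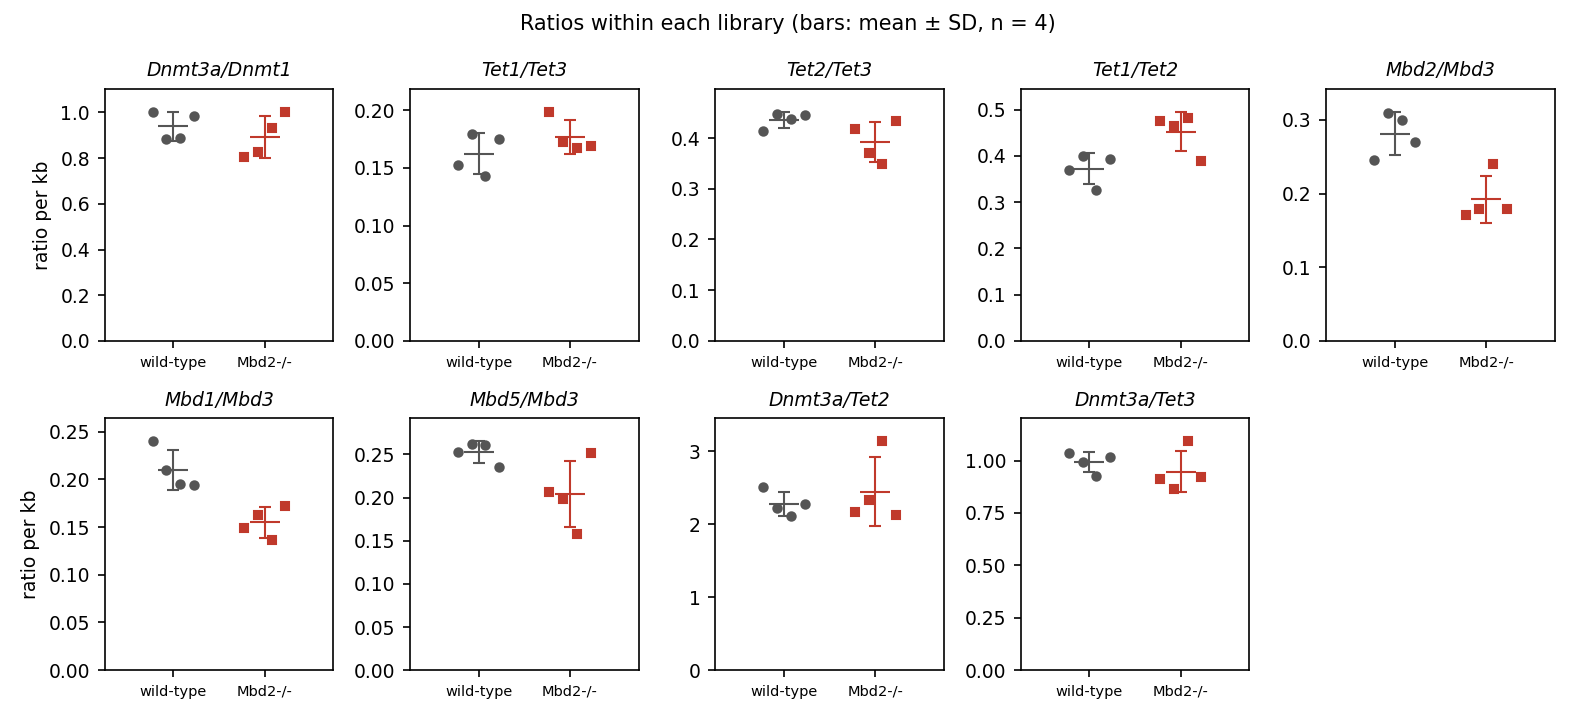
Ratio of normalized counts per kb within each library (y axes from 0) for the 9 pairs, with wild-type as grey circles, Mbd2-/- as red squares, and bars at the mean ± SD (n = 4). Mbd2 over Mbd3 and Mbd1 over Mbd3 separate the genotypes, with wild-type means of 0.281 and 0.210 and Mbd2-/- means of 0.192 and 0.155.

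DNA methylation lies mainly at CpG dinucleotides, and the promoters of these genes hold such sites themselves, whose methylation a count of CpG does not show. RefSeq promoter windows (GRCm38.p6, 250 bases before to 50 after the start) were matched by symbol for 8 of the 10 genes, in 13 windows. Across 32851 windows the median was 7 CpG, with quartiles of 3 and 20. Tet2 had 57 CpG, more than 99.8% of all windows, and 2 Dnmt3a windows that overlap each other had 46 and 47, more than 98.4% and 98.6%, while the third Dnmt3a window, at chr12:3891494-3891793, had 18 (70.3%). Mbd3 and Tet3 each had 22, Tet1 17, Dnmt3b 30, and the 3 Dnmt1 windows 33, 12 and 2. The Mbd5 windows had 19 and 4. The called genes Mbd1 and Mbd2 had no matched window. Below are printed the window with the most CpG, that of Tet2, the first window of Dnmt3a, that of Mbd3, the gene with the highest level per kb, and that of Tet1, the gene with the difference nearest to 0, all 5′ to 3′ on the strand of the gene with each CpG in capitals. They are Tet2 at chr3:133544341-133544640 on the reverse strand, Dnmt3a at chr12:3806730-3807029 on the forward strand, Mbd3 at chr10:80399482-80399781 and Tet1 at chr10:62887275-62887574, both on the reverse strand.
Tet2: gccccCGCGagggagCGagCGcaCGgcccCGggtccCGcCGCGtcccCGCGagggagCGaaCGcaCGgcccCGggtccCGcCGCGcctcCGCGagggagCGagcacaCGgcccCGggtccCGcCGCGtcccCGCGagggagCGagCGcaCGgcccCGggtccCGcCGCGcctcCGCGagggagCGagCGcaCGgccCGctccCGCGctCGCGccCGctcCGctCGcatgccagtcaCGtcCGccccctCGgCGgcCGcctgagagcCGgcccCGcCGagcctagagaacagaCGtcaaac
Dnmt3a: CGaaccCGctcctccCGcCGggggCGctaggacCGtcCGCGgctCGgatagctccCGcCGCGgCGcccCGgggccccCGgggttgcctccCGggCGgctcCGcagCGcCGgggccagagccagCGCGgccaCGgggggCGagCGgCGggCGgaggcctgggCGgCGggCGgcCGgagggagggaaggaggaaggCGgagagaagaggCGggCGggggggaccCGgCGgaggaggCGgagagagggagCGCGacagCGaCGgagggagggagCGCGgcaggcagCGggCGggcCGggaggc
Mbd3: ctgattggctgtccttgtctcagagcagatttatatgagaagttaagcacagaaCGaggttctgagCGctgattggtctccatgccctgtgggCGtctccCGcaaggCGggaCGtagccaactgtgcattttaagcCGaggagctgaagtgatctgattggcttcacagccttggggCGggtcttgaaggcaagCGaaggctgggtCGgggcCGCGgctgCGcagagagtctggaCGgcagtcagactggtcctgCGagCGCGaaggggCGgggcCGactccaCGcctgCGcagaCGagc
Tet1: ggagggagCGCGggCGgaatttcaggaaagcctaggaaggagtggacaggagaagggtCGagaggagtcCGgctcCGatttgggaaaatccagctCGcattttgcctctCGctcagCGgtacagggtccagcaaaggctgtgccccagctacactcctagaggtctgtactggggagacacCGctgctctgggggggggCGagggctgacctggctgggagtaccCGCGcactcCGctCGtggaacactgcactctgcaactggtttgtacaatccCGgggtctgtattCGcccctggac

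The Tet2 window is built of a repeat. Its most frequent words of 8 bases occur 5 times. The first of them, CCGCGAGG, recurs at a spacing of 42 bases, and over that stretch 92.1% of bases equal the base 42 positions further on. This search was made after the sequence was seen. The word occurs on either strand in 1.44% of all windows, and this was the only window with as many as 5 copies. Of known motifs searched on both strands, the GC box GGGCGG, which Sp1 binds, was found 6 times in the printed Dnmt3a window, 2 times in Mbd3 and once each in Tet1 and Tet2, and it occurs in 35.7% of all windows. CCAAT was found 3 times in the Mbd3 window and in none of the other 3, and it occurs in 37.4% of all windows. The CRE TGACGTCA (1.79% of windows), the E-box CACGTG (7.15%) and the palindromic NRF1 motif (0.971%) were not found in the 4 printed windows. The GC box and the CRE each contain a CpG, as do the E-box and the NRF1 motif, so that their counts overlap the CpG counts. Methylation and binding at these windows were not analysed here.

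Other genes of the methylation cycle were described by list, beside shares over all tested genes of 10.0% called lower and 12.0% called higher, near which a single call among 10 genes lies. Of 10 tested genes among other methyl-DNA readers and the Uhrf proteins, 1 was called lower and none higher, with a median of -0.08. It was Setdb1, a histone H3K9 methyltransferase with a methyl-CpG-binding domain, which fell from 593 ± 22.5 to 500.3 ± 38.8 normalized counts (log2 fold change -0.25, limma adjusted p = 0.0164) without overlap between libraries. The most expressed of the list, the methyl-CpG-binding zinc finger gene Zbtb4 at 2918 and 2797 and Baz2a at 1051 and 944, were not called. Setdb2 was not tested because of its low counts.

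Of 8 tested cofactors of the Dnmt and Tet enzymes, 2 were called higher and none lower, with a median of 0.02. Both were isocitrate dehydrogenases, which make the 2-oxoglutarate that Tet enzymes consume. Idh1, the cytosolic enzyme, rose from 485 ± 43.5 to 592 ± 28.1 normalized counts (log2 fold change 0.29, limma adjusted p = 0.00902), and Idh2, the mitochondrial one, from 448 ± 13.2 to 589.7 ± 41.8 (0.39, limma adjusted p = 8.30e-04). Neither overlapped between the genotypes, and both were called under all 18 alternatives. The sums of oligodendrocyte and astrocyte markers given above were also higher in every Mbd2-/- library. The most expressed of the list, Ogt, a sugar transferase that binds Tet proteins, had 2768 and 2458 (limma adjusted p = 0.0639), and Cxxc5 had 918 and 916. Dnmt3l, the catalytically inactive partner of the de novo enzymes, was not tested because of its low counts.

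Of 10 tested factors of base excision repair and demethylation, 1 was called higher and none lower, with a median of 0.12. It was Gadd45b, an activity-induced gene, which rose from 89.6 ± 13.6 to 121 ± 14.4 normalized counts with overlap between libraries (log2 fold change 0.44, limma adjusted p = 0.0224). The most expressed were Apex1, the abasic site endonuclease, at 393 and 424, and Polb, a repair polymerase, at 383 and 424, and neither was called. The glycosylase genes Tdg and Neil3 were left out by the filter. Tdg has near-identical copies in the mouse genome and the handling of shared reads is not given in the sources used here, so its count is uncertain. Of 10 genes of the methyl donor cycle, 1 was called lower and 1 higher, with a median of 0.03. Mtr, methionine synthase, fell from 259.7 ± 14.3 to 209 ± 30.9 (log2 fold change -0.32, limma adjusted p = 0.0288), and Mat2b, the regulatory subunit of methionine adenosyltransferase, rose from 1119 ± 50.0 to 1267 ± 50.2 (0.18, limma adjusted p = 0.0288) without overlap. Ahcyl1 at 5376 and 5668 and Ahcyl2 at 4605 and 4568 were the most expressed. With the length trend removed, Setdb1 (log2 fold change -0.16, limma adjusted p = 0.122), Gadd45b (0.23, 0.206) and Mat2b (0.13, 0.121) were no longer called. The call of Setdb1 was also lost without wild-type replicate 1 or 4 or Mbd2-/- replicate 1 (0.0517 to 0.0620), and that of Gadd45b without wild-type replicate 2 or 3 or Mbd2-/- replicate 1 or 2 (0.0677 to 0.0764). Mat2b (0.0696 to 0.0943) and Mtr (0.0567 to 0.101) lost theirs without any 1 of wild-type replicates 1, 2 and 3 and Mbd2-/- replicates 1 and 2. Over all 8 fits with a library left out the log2 fold changes were -0.28 to -0.20 for Setdb1 and 0.35 to 0.53 for Gadd45b. For Mat2b they were 0.16 to 0.21 and for Mtr -0.40 to -0.23.

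The genes whose profiles over the 8 libraries lay nearest to a called member were found by the root mean square distance of centred log2 values. Nearest to Mbd2 were Col26a1 (0.0816) and Zfp341 (0.0958), where the median over all tested genes was 0.328. Nearest to Mbd1 were Cdyl2 (0.0488) and Lman2l (0.0489), against a median of 0.229. Dnmt3a had Tango6 (0.0349) and Map3k9 (0.0394) at its side, against a median of 0.210, and Tet2 had Atf7 (0.0427) and Tenm1 (0.0454), against 0.265. These distances are a description over 8 libraries, and part of each comes from the difference between the genotypes.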

How the data were processed

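RNA-seq libraries were grouped by the genotype in their labels, 4 wild-type and 4 Mbd2-/-. Per the study's methods, reads without duplicates were aligned by STAR to mm9. The counting tool and the tool versions are not given in the sources used here. As the deposited signal, the authors gave normalized counts, in which each library's reads on a gene were scaled with its DESeq2 size factor. The authors' own fold changes and p-values were not used. Since 100% of values were whole multiples of the value of 1 read (0.531 to 1.59 normalized counts) to within 0.01, reads were recovered for DESeq2 1.42.0 and edgeR 4.0.16 as alternatives.

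Genes with a mean of at least 10 were tested with limma 3.58.1 (trend, robust; R 4.3.3) on log2(normalized count + 1). Annotation was GENCODE vM1, matched for 94.3% of symbols. Alternatives were other scalings, pseudocounts and tests, no filter, removal of length or GC trends, a replicate block and each library left out. Scripts were tested on simulated data. Named genes were all 10 members, the called, the untested and the 2 most expressed genes of each pathway list, the first marker of most marker lists and the 2 nearest profiles. Members, lists and named genes were chosen with earlier results of these data known, and Pcna and Calb2 were named after their values were seen. Protein sequences were not used here.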

Additional observations from a re-analysis of the deposited data

Results flagged for a closer look

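The values of the 10 genes and of their 9 ratios were screened for a library far from the other 3 of its genotype, and 2 of 38 groups exceeded Dixon's 95% limit for 4 samples, where chance gives about 1 in 20. The ratio of Mbd2 over Mbd3 per kb was 0.240 in Mbd2-/- replicate 3, beside 0.170 to 0.179 in the other 3 Mbd2-/- libraries. The ratio of Tet1 over Tet3 per kb was 0.199 in Mbd2-/- replicate 1, beside 0.168 to 0.172.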

How the results depend on the processing

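The same 4 genes were called lower under TMM and upper quartile scaling, no filter, pseudocounts of 0.5 and 5, edgeR, DESeq2 and the replicate block. With the length trend removed 2 were called (Mbd1 and Mbd2), with the GC trend removed 6 (Mbd5 and Dnmt1 in addition), and with 1 library left out 1 to 6, and 0 to 1 were called higher. Over all tested genes the calls were 3185 in the reported fit, 2105 without the length trend, 4531 without the GC trend and 2068 to 5155 with 1 library left out. Without the length trend Mbd3 stood at -0.012 and Tet1 at 0.13, and with 1 library left out Tet1 ranged from -0.061 to 0.040 and the log2 ratio difference of Dnmt3a over Tet2 from -0.042 to 0.14, with -0.012, 0.13, 0.040 and -0.042 (the last pair without Mbd2-/- replicate 3) of the opposite sign to the reported values and not called, and the cause was not tested. The exact test of Mbd2 gave log2 differences of -0.56 to -0.35 with 1 library left out, with p from 0.0286 (without Mbd2-/- replicate 3) to 0.114 (without Mbd2-/- replicate 4). With union exons 4 of 10 genes kept their rank and the wild-type ratio of Dnmt over Tet was 1.05 and of Mbd over Tet 4.38. The labels name no pairing by replicate number, and deviations of libraries with the same number had correlations of -0.10, -0.06, 0.07 and 0.04. Under the replicate block the exact p of Mbd2 was 0.125, the smallest that 4 pairs allow. No ratio pair was called under the 12 alternatives run for ratios, which were pseudocounts of 0.5 and 5, the length trend removed, the replicate block and each library left out. Removal of the GC trend was not run for ratios, and under the replicate block, with a smallest p of 0.125, no call was possible. Dnmt3b rests on 4 to 18 reads per library.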
